A study of Mus musculus with 2 samples.

Results

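Heat shock proteins and their cochaperones were followed in the heart after loss of Med1, a subunit of the Mediator complex that links transcription factors to RNA polymerase II. The members were taken by gene symbol: every symbol that starts with Hspa, Hspb, Hsph, Hsp90 or Dnaj, together with Cryab, the heat shock factors Hsf1 and Hsf2, and Bag1 to Bag6. Hspa9, Dnajc15 and Dnajc19, which work in the mitochondrial matrix or at its import channel, and the binding proteins Hspbp1 and Hspbap1 were left out. This gave 76 members among the 22882 gene symbols of the libraries.

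The hearts came from 23 day old mice of both sexes on a C57BL6/J background. Heart RNA of 5 Med1fl/fl mice was pooled into the control library, and heart RNA of 5 csMed1-/- mice into the other. Both groups carried the loxP-flanked Med1 alleles. In csMed1-/- mice a Cre transgene driven by the α-myosin heavy chain promoter, which is active in cardiomyocytes late in gestation and early after birth, removed the flanked exons, so the other cell types of the heart were not targeted. No library of mice with Cre alone was analysed here. With 1 pooled library per genotype there were no replicates: no test could be made, the spread between hearts of 1 genotype is unknown, and each difference given here is a ratio between these 2 libraries.

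Heat shock proteins are molecular chaperones. HSP70 binds stretches of unfolded protein in a cycle of ATP hydrolysis that J-domain proteins (the Dnaj genes) start and that nucleotide exchange factors of the HSP110 and BAG families end, and HSP90 takes over many of the clients for the last steps of folding. Small heat shock proteins hold unfolding proteins without using ATP and are abundant in striated muscle, where several of them sit at the Z-disc and on titin, and heat shock factor 1 (HSF1) is the main activator of the stress-inducible members through GAA repeats in their promoters.

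Expression was measured as FPKM, in which the number of fragments is divided by transcript length and by library size, which allows levels to be compared between genes per length. Of the 76 members, 63 were above 0 in both libraries and reached 1 FPKM in at least 1 of them, and the counts below are over these 63. The cytosolic HSP70 genes Hspa1a, Hspa1b, Hspa1l and Hspa2, the inducible HSP90 gene Hsp90aa1 and the small heat shock protein Hspb1 were more than 2-fold higher in csMed1-/- hearts, whereas the constitutive Hspa8 and Hsp90ab1, by far the most abundant genes of the HSP70 and HSP90 families, were lower by less than 2-fold. The 8 members that were more than 2-fold lower comprised 7 J-domain genes and Hspa12a. These 6 higher members were 9.52% of the members kept, against 13.6% of the 10489 genes kept overall. The 8 lower members were 12.7%, against 18% of all genes kept. At this threshold neither share exceeded the background, and 77.8% of the members against 68.5% of all genes lay within 2-fold. Past 4-fold, 5 of the 63 members were higher, beside 4.32% of all genes, and 2 were lower, beside 5.14%. Hspa1a and Hspa1b, which are nearly alike in sequence, were among these 5. In all, 31 members were above and 32 below their control level, with a median log2 ratio of -0.09 (quartiles -0.52 and 0.49), beside a median of -0.07 over all genes (quartiles -0.72 and 0.55). When both libraries were scaled to the same FPKM total, the split of 6 higher and 8 lower members became 9 and 8, beside 16.0% and 15.5% of all genes. That scaling raised every log2 ratio by 0.12, and the medians were then 0.04 for the members and 0.05 for all genes. The median of the members was thus close to that of all genes, and the larger differences lay in single members and classes.

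**Figure D1:**
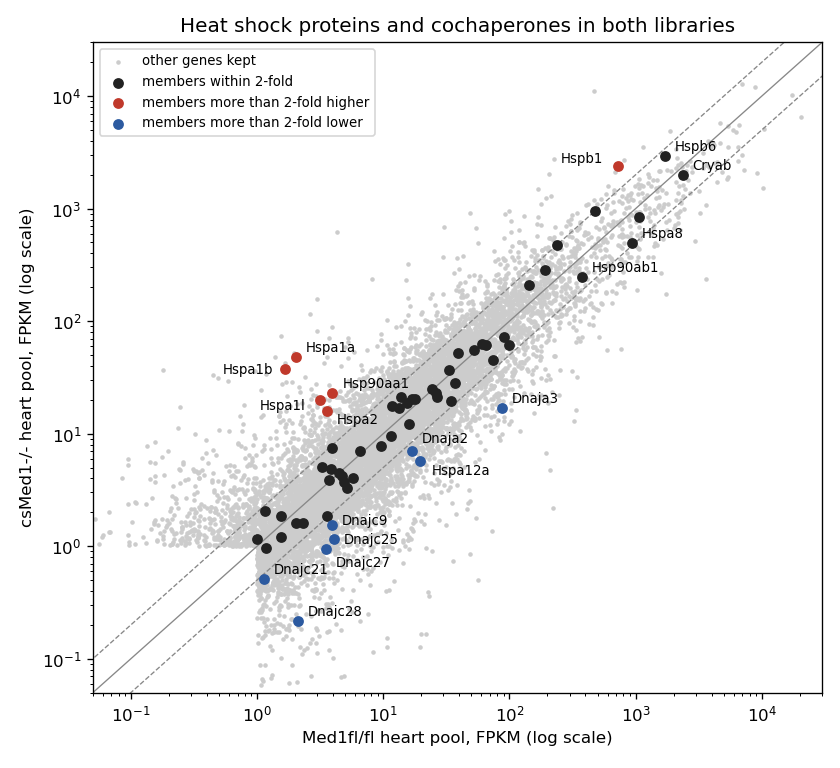
Level of each gene in both libraries, with the Med1fl/fl pool on the x axis and the csMed1-/- pool on the y axis, both in FPKM on log scales. Grey points are other genes kept, large points are the 63 members, the solid line marks equal levels and the dashed lines 2-fold. Hspa1a (2.04 to 48.4 FPKM) and Hspa1b (1.65 to 37.4 FPKM) stand farthest above the lines and Dnajc28 (2.09 to 0.215 FPKM) farthest below.

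Regarding the libraries themselves, the FPKM summed to 780366 in control and to 716365 in csMed1-/-. The absolute depth is unknown. From the steps between the lowest values, the csMed1-/- pool was estimated to be read 1.39 times as deeply as the other, provided that only the number of mapped fragments had been divided out. This is a rough estimate: the step held 63 of 2461 low rows, beside 24 just below and 26 just above it. The step for 1 csMed1-/- to 2 control reads held 26, beside 11 and 23, and that for 2 to 1 held 45, beside 14 and 23. Med1 itself was 3.38 FPKM in control and 0.412 FPKM in csMed1-/- (log2 ratio -3.04), the direction that its label calls for. The heart label was checked against cardiomyocyte markers, of which Tnnt2, Tnni3, Actn2, Myl2 and Myl3 were at 1119 FPKM or more in both libraries. Actc1 was listed at 0 in control and at 9189 FPKM in csMed1-/-, and such an exact 0 can be a failed estimate. Without Actc1 the markers summed to 51655 FPKM in control and 21397 FPKM in csMed1-/-, and 3 of 5 were more than 2-fold lower. The summed level of 6 fibroblast markers was 397 and 853 FPKM, that of 4 smooth muscle markers 604 and 1024 FPKM, that of 4 endothelial markers 355 and 242 FPKM, and that of 4 macrophage markers 38.5 and 39.0 FPKM. Of the 6 fibroblast markers 3 were above and 3 below control, and Col1a1 alone was 129 and 502 FPKM. Of the 4 smooth muscle markers 2 were above and 2 below control. Cnn1 alone was 4.32 and 622 FPKM, whereas Acta2 was 573 and 310 FPKM. In whole-heart RNA, fewer cells of a type and less RNA per cell cannot be told apart, and the part of these markers in the members' differences was not tested.

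Among the cytosolic HSP70 genes, the constitutive Hspa8 and the other members differed in opposite directions. Hspa1a, the classical heat-inducible HSP70, was 2.04 FPKM in control and 48.4 FPKM in csMed1-/-, 23.8-fold higher (log2 ratio 4.57). Hspa1b, its tandem copy, was 1.65 and 37.4 FPKM, 22.6-fold higher (log2 ratio 4.50). The ratio of the pair to each other was listed at 1.23 in control and 1.29 in csMed1-/-. It depends on how reads that match both genes were divided, which is not known. Hspa1l, the neighbouring gene that is best known from the testis, was 3.16 and 19.8 FPKM, 6.25-fold higher (log2 ratio 2.64). Hspa2, another HSP70 that is abundant in male germ cells, was 3.56 and 15.9 FPKM, 4.46-fold higher (log2 ratio 2.16). All 4 were thus below 4 FPKM in control and above 15 FPKM in csMed1-/-. The precision of such low control values, and so of the folds, is unknown. Of 4 germ cell markers, Prm1 and Acrv1 were listed at 0 in both libraries, and the 4 together did not exceed 0.0262 FPKM in either.

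Hspa8, the constitutive HSP70 also known as HSC70, was 928 FPKM in control and 495 FPKM in csMed1-/- (log2 ratio -0.91). It remained the most abundant HSP70 of both libraries, and its rank among all genes went from 154 to 272. The inducible pair together stood at 0.397% of the Hspa8 level in control and at 17.3% in csMed1-/-, a 43.6-fold change of the ratio within a library, which does not depend on how the libraries were scaled. The sum over the 5 cytosolic genes was lower, 939 FPKM against 617 FPKM, because Hspa8 makes up most of it. Without Hspa8 the other 4 genes summed to 10.4 and 121 FPKM.

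Hspa1a and Hspa1b are so alike that short reads can hardly tell them apart, and their sequences are shown for that reason. In the GENCODE M21 annotation of GRCm38, Hspa1a lies on the minus strand of chromosome 17 (chr17:34969190-34972156), Hspa1b lies beside it on the same strand (chr17:34956436-34959238), and Hspa1l follows on the plus strand (chr17:34972703-34979285). The coding sequences of Hspa1a and Hspa1b, 1923 and 1926 bases without the stop codon, were 99.4% identical, with 8 substituted bases and 3 gap columns. That of Hspa1a was 82.8% identical to Hspa1l, 78.2% to Hspa2 and 73.9% to Hspa8. Below are the first 90 coding bases of the transcripts, 5′ to 3′ from the start codon, in which capitals mark bases that differ from Hspa1a. Hspa1b has none and Hspa8 has 22 of them.
Hspa1a: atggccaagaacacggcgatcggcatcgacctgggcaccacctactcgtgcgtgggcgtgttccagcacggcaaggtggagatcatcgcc
Hspa1b: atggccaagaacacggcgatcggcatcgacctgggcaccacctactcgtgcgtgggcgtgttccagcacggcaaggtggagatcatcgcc
Hspa8: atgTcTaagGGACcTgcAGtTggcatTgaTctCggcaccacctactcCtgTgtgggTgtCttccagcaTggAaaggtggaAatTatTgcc

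The likeness bears on how far the values of single genes can be read. The libraries were read as 50 nt single reads. Every 50-base word of a member's transcript was looked up, in the sense direction only, in the transcripts of all other annotated genes. Of the words of Hspa1a 60.3% also occurred in another gene, nearly all of them in Hspa1b, and of the words of Hspa1b 62.3% occurred in Hspa1a. The separate values of the pair are therefore uncertain, whereas their sum, 3.69 FPKM in control and 85.8 FPKM in csMed1-/-, depends little on how reads were divided between them, since the transcripts are close in length (2967 and 2803 bases). Hspa1l shared 9.57% of its words, with Hspa1a, and Hspa2 shared none. Hspa8 shared 73.2% of its words, most with the annotated gene Gm15459, Hsp90aa1 shared 58.5%, most with Gm12346, and Hspb1 shared 51.6%, with Hsp25-ps1. How reads with several matches were counted is not given in the sources used here. Without the 9 kept members that shared 10% or more of their words, 2 of 54 members (Hspa1l and Hspa2) were more than 2-fold higher and 8 were lower. The lower members shared little: the largest shares were 8.45% for Dnajc25 and 4.80% for Dnajc9, and the other 6 shared no word.

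**Figure D2:**
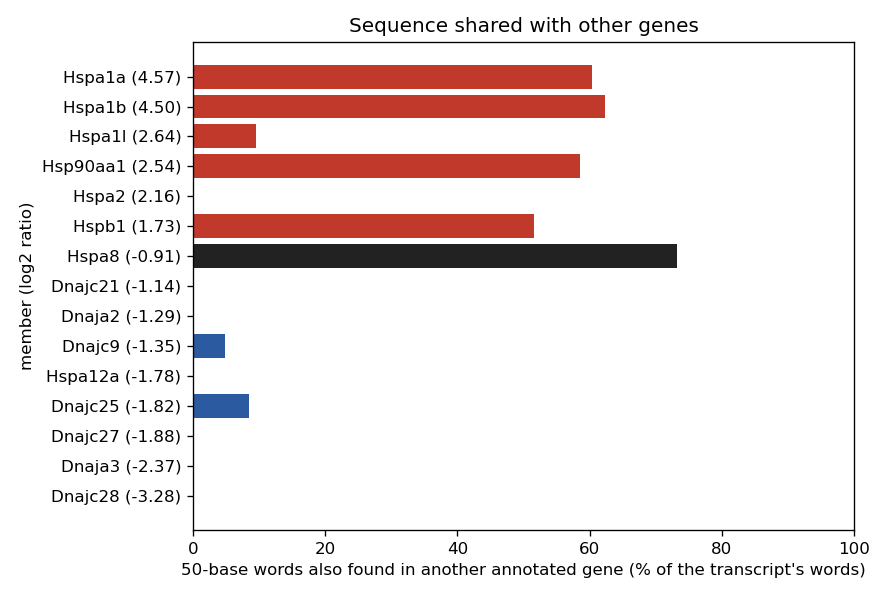
Share of each transcript's 50-base words that also occur in another annotated gene (x axis, percent), for the 14 members more than 2-fold apart and Hspa8, with the log2 ratio in brackets. Red bars are higher, blue bars lower and the black bar within 2-fold. Hspa1a, Hspa1b, Hsp90aa1 and Hspb1 exceed 50%, Hspa8 reaches 73.2%, and no lower member exceeds 8.45%.

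The study listed the same primer pair for quantitative PCR of Hspa1a and of Hspa1b, and the pair is printed here since it shows what such an assay can separate.
Forward: CAAGAAGAAGGTGCTGGACA
Reverse: GGTACAGCCCACTGATGATG
Both primers, 20 bases each, matched the coding sequences of Hspa1a and Hspa1b without a mismatch, the first from coding base 1698 and the second, as its reverse complement, from coding base 1815. Neither matched the transcript of Hspa1l, Hspa2 or Hspa8. The pair therefore reads the sum of both genes.

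The promoters of the members were searched for the heat shock element, the binding motif of heat shock factors, made of alternating inverted GAA units. Matches were counted on both strands in RefSeq promoters (GRCm38.p6) from 250 bases before to 50 bases after the start. The search with 3 units used the letters GAANNTTCNNGAA or TTCNNGAANNTTC, and the search with 2 units, which every match of 3 units also contains, used GAANNTTC or TTCNNGAA. Promoters were found for 60 members, and they were lacking for Bag4, Cryab, Dnajc11, Dnajc12, Dnajc18, Dnajc2, Dnajc22, Dnajc30, Dnajc5, Dnajc5b, Hsf1, Hsp90aa1, Hsp90ab1, Hspa13, Hspa8 and Hspb2. A match of 3 units occurred in 2 of the 60 members (3.33%), Dnajb6 and Hsph1, and in 0.662% of 27025 genes. Counted by promoter, it was in 4 of 77 promoters of the members and in 0.603% of all 32851 promoters. Neither Dnajb6 (18 and 20.4 FPKM) nor Hsph1 (5.18 and 3.31 FPKM) was more than 2-fold apart.

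A match of 2 units occurred in 15 of the 60 members (25%) and in 17.0% of all genes. Of these 15, 14 were kept: Bag3, Dnaja1, Dnaja4, Dnajb4, Dnajb6, Dnajc10, Dnajc27, Hspa1a, Hspa1b, Hspb1, Hspb3, Hspb6, Hspb8 and Hsph1. Their median log2 ratio was 0.60, 11 of the 14 were above their control level, 3 were more than 2-fold higher and 1, Dnajc27, was more than 2-fold lower. Of the 38 kept members whose promoter held no such match, 16 were above control, 2 were more than 2-fold higher and 7 lower, with a median of -0.22. Over all kept genes with a promoter, 49.1% of 1035 with a match were above control (median -0.02; 14.1% more than 2-fold higher, 16.4% lower), and 46.5% of 6373 without one (median -0.08; 12.8% and 17.7%). Hspa1a and Hspa1b, with nearly the same transcript and promoter, count almost as 1 gene among the 3. Below are the 150 bases before the start of the 3 higher members with a match, 5′ to 3′ on the strand of the gene, with the match in capitals. They are Hspa1a (chr17:34972157-34972306, minus strand), Hspa1b (chr17:34959239-34959388, minus strand) and Hspb1 (chr5:135887769-135887918, plus strand).
Hspa1a: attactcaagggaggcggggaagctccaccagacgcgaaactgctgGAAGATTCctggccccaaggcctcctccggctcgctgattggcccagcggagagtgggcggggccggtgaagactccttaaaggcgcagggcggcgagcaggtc
Hspa1b: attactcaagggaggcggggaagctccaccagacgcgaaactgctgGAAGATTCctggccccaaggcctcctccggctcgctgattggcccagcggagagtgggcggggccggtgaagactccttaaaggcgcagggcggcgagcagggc
Hspb1: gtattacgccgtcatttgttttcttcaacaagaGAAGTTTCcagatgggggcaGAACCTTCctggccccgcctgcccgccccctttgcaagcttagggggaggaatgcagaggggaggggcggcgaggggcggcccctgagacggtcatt
The windows of Hspa1a and Hspa1b were identical at 149 of 150 bases, so the likeness of the pair extends upstream of the transcript. A match says only that these letters are present, and factor binding was not measured here. Units with other letters or spacing were not counted, so the lack of a match does not mean that no element is present.

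The heat shock factors themselves were slightly lower. Hsf1, the stress-activated factor, was 37.3 FPKM in control and 28.0 FPKM in csMed1-/- (log2 ratio -0.41). Hsf2, its relative with a role in development, was 2.04 and 1.62 FPKM (log2 ratio -0.33). Neither was 2-fold apart, and transcript levels carry no information on the activation of these factors, which is known to occur on the protein.

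Among the HSP90 genes, too, the inducible gene was higher and the constitutive one lower. Hsp90aa1, the inducible cytosolic HSP90α, was 3.95 FPKM in control and 23.0 FPKM in csMed1-/-, 5.83-fold higher (log2 ratio 2.54). Its control value, too, was low and of unknown precision. Hsp90ab1, the constitutive HSP90β, was 372 and 247 FPKM (log2 ratio -0.59). Hsp90aa1 stood at 1.06% of Hsp90ab1 in control and at 9.30% in csMed1-/-, an 8.77-fold change of the ratio. Hsp90b1, the HSP90 of the endoplasmic reticulum, was 9.64 and 7.73 FPKM (log2 ratio -0.32). The 3 genes summed to 386 FPKM in control and 278 FPKM in csMed1-/-.

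The remaining HSP70 relatives were lower or near their control level. Hspa5, the HSP70 of the endoplasmic reticulum also known as BiP, was 73.9 FPKM in control and 44.7 FPKM in csMed1-/- (log2 ratio -0.72). Hspa12a, a distant relative of HSP70, was 19.5 and 5.68 FPKM, 3.44-fold lower (log2 ratio -1.78). It stands on 2 rows of each library, and both were lower, 5.59 against 1.01 FPKM and 13.9 against 4.66 FPKM. Hspa12b, its paralogue of endothelial cells, was 26.0 and 22.8 FPKM (log2 ratio -0.19), beside summed endothelial markers that were 0.683 times their control level. Hspa14, which acts with the ribosome, was 4.91 and 3.69 FPKM (log2 ratio -0.41).

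Of the HSP110 exchange factors, which release ADP from HSP70, Hspa4 was 11.5 and 9.61 FPKM (log2 ratio -0.26). Hsph1, also known as HSP105, was 5.18 and 3.31 FPKM (log2 ratio -0.65). Hspa4l was 0.990 and 1.16 FPKM (log2 ratio 0.23). None of the 3 was 2-fold apart.

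**Figure D3:**
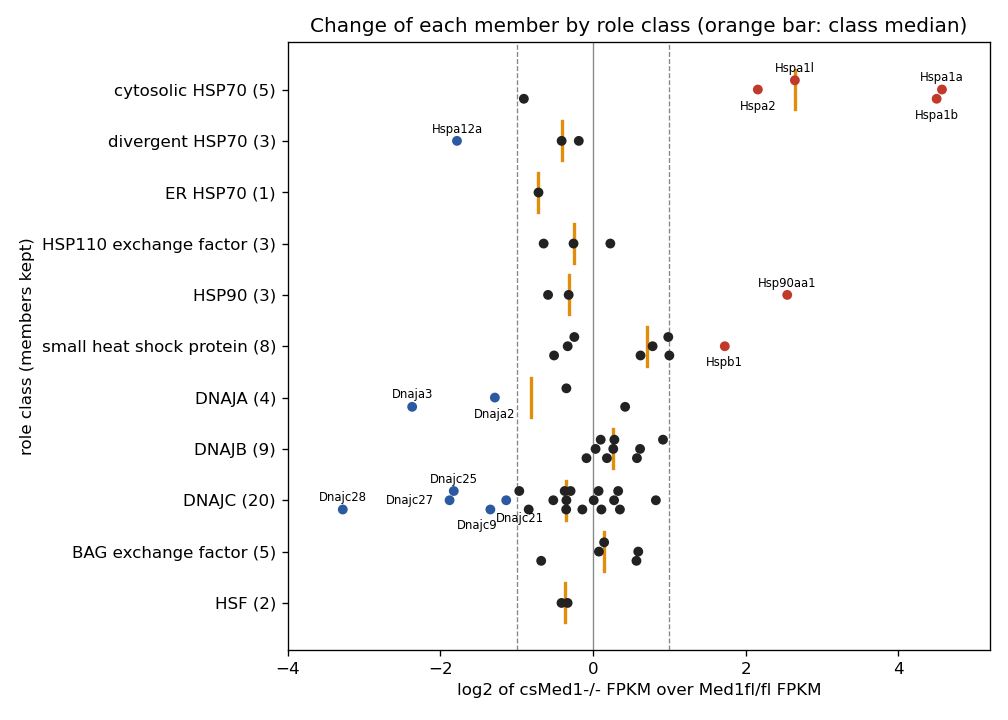
Log2 ratio of csMed1-/- over Med1fl/fl FPKM (x axis) for each of the 63 members kept, by role class (y axis, with the number kept). Each point is a gene, red and blue mark members past 2-fold (dashed lines), and orange bars are class medians. The median was 2.64 for cytosolic HSP70 genes, 0.70 for small heat shock proteins, -0.82 for DNAJA and -0.35 for DNAJC genes.

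Small heat shock proteins were the most abundant class, and Hspb1, Hspb2, Hspb6 and Hspb8 differed upwards while Cryab and Hspb7 were slightly lower. Hspb1, which stabilises actin filaments and holds unfolding proteins, was 719 FPKM in control and 2377 FPKM in csMed1-/-, 3.31-fold higher (log2 ratio 1.73), and it moved from rank 205 to rank 37 among all genes. It was the only small heat shock protein past 2-fold, and its reads could be shared with Hsp25-ps1 as described above. Hspb2, which forms complexes with Hspb3 in muscle, was 239 and 477 FPKM (log2 ratio 0.999, just short of 2-fold). Hspb8, the partner of Bag3 in the removal of damaged muscle proteins, was 481 and 952 FPKM (log2 ratio 0.99). Both lay within a few percent of the threshold and passed it when the ratios were centred on the median of all genes or scaled to the FPKM total. Hspb6, a phosphorylated small heat shock protein of heart and smooth muscle, was 1707 and 2930 FPKM (log2 ratio 0.78), and it moved from rank 81 to rank 25. Hspb3 was 13.8 and 21.2 FPKM (log2 ratio 0.62).

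Cryab, the αB-crystallin that binds desmin and titin and is mutated in desmin-related cardiomyopathy, was 2358 FPKM in control and 1989 FPKM in csMed1-/- (log2 ratio -0.25). Hspb7, a small heat shock protein of heart and skeletal muscle that binds filamin C, was 1059 and 841 FPKM (log2 ratio -0.33). Hspb11, which in fact works in the transport machinery of cilia, was 2.29 and 1.61 FPKM (log2 ratio -0.51). Of the 8 kept, 5 were thus above and 3 below control, with a class median of 0.70. Above control were 62.5%, beside 46.8% of all genes. The order of the most abundant members changed as well: Cryab was the highest in control, whereas Hspb6 and Hspb1 both exceeded it in csMed1-/-. Hspb1 stood at 0.305 times Cryab in control and at 1.20 times Cryab in csMed1-/-, and Hspb6 at 0.724 and 1.47 times.

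Hspb2 and Cryab lie head to head on chromosome 9 and overlap in the annotation, Hspb2 on the minus strand (chr9:50751078-50752354) and Cryab on the plus strand (chr9:50751325-50756636). Their ratio to each other went from 0.101 to 0.240. The libraries were directional. Words were looked up in the sense direction only, so an overlap of genes on opposite strands could not show up as shared words. Whether the strand was used in counting is not given in the sources used here, so reads in the overlap cannot be assigned to either gene with certainty.

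The small heat shock proteins summed to 6578 FPKM in control and 9589 FPKM in csMed1-/-, 71.5% and 81.6% of the FPKM of all members. The 76 members together summed to 9200 and 11757 FPKM, which was 1.18% of the control library and 1.64% of the csMed1-/- library. With the 100 highest genes left out, Cryab, Hspb1 and Hspb6 among them, the share was 1.0% in both. Much of this difference came from 1 gene, since the members without Hspb1 summed to 8481 and 9380 FPKM. Without Hspb1 and Hspb6 the class of small heat shock proteins summed to 4153 and 4282 FPKM, 1.03 times the control level. Over the same libraries the cardiomyocyte markers without Actc1 summed to 0.414 times their control level, whereas smooth muscle markers summed to 1.69 times. Of the latter, Cnn1 was 4.32 and 622 FPKM and Tagln 23.8 and 89.7 FPKM. Acta2, at 573 and 310 FPKM, and Myh11, at 3.68 and 1.79 FPKM, were lower.

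**Figure D4:**
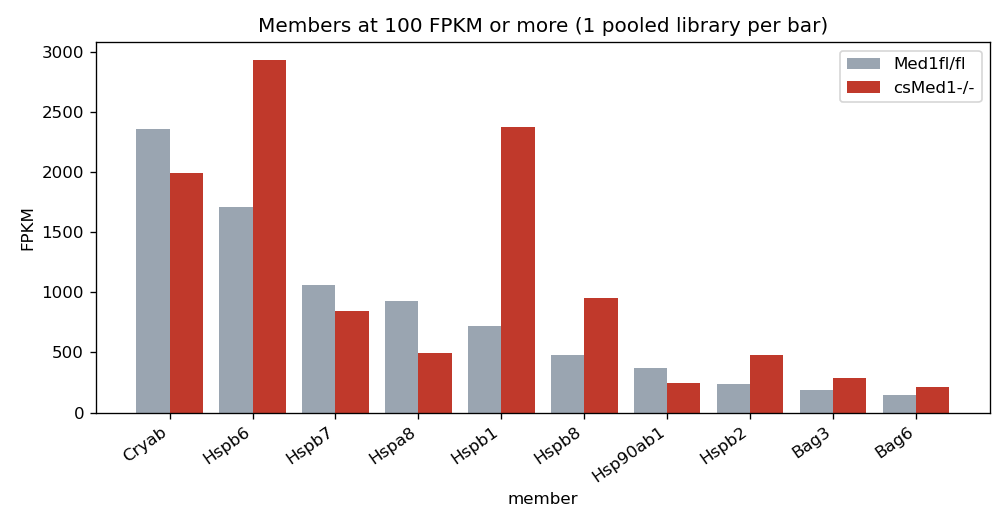
FPKM (y axis, from 0) of the 10 members at 100 FPKM or more in either library, ordered by control level. Grey bars are the Med1fl/fl pool and red bars the csMed1-/- pool, each a single library without an error bar. Hspb6 and Hspb1 reach 2930 and 2377 FPKM in csMed1-/- and exceed Cryab at 1989 FPKM, while Hspa8 drops from 928 to 495 FPKM.

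The J-domain proteins, the largest group of members, differed by subfamily. Of the DNAJA genes, which bind unfolded clients themselves, Dnaja3 and Dnaja2 were more than 2-fold lower. That is 50% of the 4, beside 18% of all genes. Dnaja3, a mitochondrial J-domain protein that works with Hspa9, was 86.8 FPKM in control and 16.8 FPKM in csMed1-/-, 5.17-fold lower (log2 ratio -2.37). Dnaja2, a cytosolic partner of Hspa8, was 17.0 and 6.95 FPKM, 2.44-fold lower (log2 ratio -1.29). Dnaja4 was 39.3 and 52.6 FPKM (log2 ratio 0.42), and Dnaja1 was 1.54 and 1.21 FPKM (log2 ratio -0.35).

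The DNAJB genes, which include the stress-inducible J-domain proteins, were mostly a little higher. Of 13 members 9 were kept, 8 of these were above control, none was 2-fold apart, and the median log2 ratio was 0.26. Above control were thus 88.9% of the 9, beside 46.8% of all genes. Dnajb1, the inducible partner of Hspa1a and Hspa1b, was 11.7 FPKM in control and 17.4 FPKM in csMed1-/- (log2 ratio 0.57). Its difference was thus far smaller than that of the HSP70 genes it serves. Dnajb4, a cytosolic relative, was 3.29 and 5.04 FPKM (log2 ratio 0.62). Dnajb9, a J-domain protein of the endoplasmic reticulum that binds Hspa5, was 3.93 and 7.42 FPKM (log2 ratio 0.92). Dnajb5, the most abundant of the subfamily, was 65.1 and 61.4 FPKM (log2 ratio -0.09). Dnajb5 and Dnajb12 (24.2 and 24.7 FPKM, log2 ratio 0.03) were so near to their control level that another scaling of the libraries changed their direction. Dnajb6, which suppresses aggregation and is mutated in a muscular dystrophy, was 18 and 20.4 FPKM (log2 ratio 0.18), and it shared 35.8% of its words with other genes.

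The DNAJC genes, which are joined only by their J domain and work in many places of the cell, had 5 of the 8 lower members. Of 26 members 20 were kept, 13 of these were below control, 5 were more than 2-fold lower and none was more than 2-fold higher, with a median of -0.35. That is 65% below control and 25% more than 2-fold lower, beside 53.2% and 18% of all genes. Dnajc28 was 2.09 FPKM in control and 0.215 FPKM in csMed1-/-, 9.71-fold lower (log2 ratio -3.28). Dnajc27, which joins a J domain to a Rab-like GTPase, was 3.51 and 0.953 FPKM, 3.68-fold lower (log2 ratio -1.88). Dnajc25 was 4.08 and 1.15 FPKM, 3.54-fold lower (log2 ratio -1.82), and it overlaps Gm20503 on the same strand. Dnajc9, a histone chaperone of the nucleus, was 3.92 and 1.54 FPKM, 2.54-fold lower (log2 ratio -1.35). Dnajc21, with a role in ribosome assembly, was 1.13 and 0.512 FPKM (log2 ratio -1.14). All 5 lay between 1 and 5 FPKM in control, and the precision of such low values is unknown. Dnajc28, Dnajc27 and Dnajc21 were below 1 FPKM in csMed1-/- and were kept only through their control level. With 1 FPKM required in both libraries, only Dnajc25 and Dnajc9 of the 5 remained, so the shares given above depend on the filter.

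More abundant DNAJC genes differed less. Dnajc11, of the mitochondrial membranes, was 34.7 and 19.3 FPKM (log2 ratio -0.84). Dnajc4 was 91.3 and 71.7 FPKM (log2 ratio -0.35), and Dnajc30, of mitochondria, was 60.1 and 63.2 FPKM (log2 ratio 0.07). Dnajc24, which takes part in diphthamide synthesis, was 3.59 and 1.84 FPKM (log2 ratio -0.97, just within 2-fold). Upwards, Dnajc3, an inhibitor of the kinase PERK and a cochaperone in the endoplasmic reticulum, was 1.15 and 2.04 FPKM (log2 ratio 0.82). Dnajc7, which binds both HSP70 and HSP90, was 16.8 and 20.3 FPKM (log2 ratio 0.28). The other 9 DNAJC genes with a level of at least 1 FPKM in either library and not named above lay between log2 ratios of -0.52 (Dnajc18) and 0.35 (Dnajc16).

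The BAG proteins, most of which bind the ATPase domain of HSP70 and release its nucleotide, differed in both directions without passing 2-fold. Bag3, the muscle member that carries damaged Z-disc proteins to autophagy together with Hspb8, was 190 FPKM in control and 287 FPKM in csMed1-/- (log2 ratio 0.59). Bag6, which guards membrane proteins before their insertion, was 142 and 211 FPKM (log2 ratio 0.57). Bag1, which couples HSP70 to the proteasome, was 99.2 and 61.9 FPKM (log2 ratio -0.68). The ratio of Bag3 to Bag1 was 1.92 in control and 4.64 in csMed1-/-, and that of Hspb8 to Bag3 was 2.52 and 3.31. Bag2 was 33.3 and 36.8 FPKM (log2 ratio 0.14), and Bag5 was 3.69 and 3.89 FPKM (log2 ratio 0.08). The class summed to 469 and 601 FPKM.

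The 13 members that were not kept add little. Dnajb7, Dnajb8, Dnajc5b and Dnajc5g were listed at 0 in both libraries. Dnajc22 and Dnajc6 were listed at 0 in control and at 0.0439 and 0.00236 FPKM in csMed1-/-. The other 7, Bag4, Dnajb3, Dnajb13, Dnajc2, Dnajc13, Hspa13 and Hspb9, were above 0 but under 1 FPKM in both libraries. Of these, Hspa13, an HSP70 of the microsomal lumen, was 0.269 and 0.580 FPKM, and Hspb9, a small heat shock protein of the testis, was 0.347 and 0.716 FPKM.

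Genes that work with the members were counted in the same way, from lists of the same pathway, and the counts stand beside 13.6% higher and 18% lower over all genes. Of 22 HSP90 cochaperones kept, 2 were more than 2-fold higher (9.09%) and 4 lower (18.2%), with a median log2 ratio of -0.31, both shares near or below those of all genes. The lowest was Fkbp4, an immunophilin that carries steroid receptors with HSP90, at 218 FPKM in control and 23.3 FPKM in csMed1-/- (log2 ratio -3.23). The highest was its paralogue Fkbp5, a known glucocorticoid target, at 6.97 and 28.4 FPKM (log2 ratio 2.03). Of 11 mitochondrial chaperones 10 were below control and 5 were more than 2-fold lower (45.5%), with a median of -0.92. The lowest was Hspa9, the mitochondrial HSP70 that Dnaja3 serves, at 99.9 and 25 FPKM (log2 ratio -2.0), and the highest was the protease Lonp1 at 61.2 and 82.4 FPKM (log2 ratio 0.43). Of 13 partners in ubiquitin tagging and selective autophagy 3 were more than 2-fold higher (23.1%) and 1 lower (7.69%), with a median of 0.30. In this list Hdac6, which brings aggregates to the microtubules, was the highest at 7.15 and 27.5 FPKM (log2 ratio 1.94), and Synpo2, a Z-disc partner of Bag3, was the lowest at 37.2 and 9.51 FPKM (log2 ratio -1.97).

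Of 20 genes of folding and the unfolded protein response in the endoplasmic reticulum 2 were more than 2-fold higher (10%) and 1 lower (5%), with a median of 0.26. Sil1, the exchange factor of Hspa5, was the highest at 15.8 and 38 FPKM (log2 ratio 1.26), and Herpud1, of the degradation pathway, was the lowest at 263 and 113 FPKM (log2 ratio -1.22). Of 13 subunits of the CCT chaperonin and prefoldin none was more than 2-fold higher and 1, Cct4, was lower at 32.5 and 13.5 FPKM (log2 ratio -1.26), with a median of 0.10 and the highest ratio in Cct3 (log2 ratio 0.57). Of 6 collagen chaperones and modifying enzymes none was 2-fold apart, with a median of 0.44, from Serpinh1 (log2 ratio -0.27) to Plod1 (log2 ratio 0.83). The 6 fibroblast markers summed to 2.15 times their control level, but 3 of them were below control. Of 4 kept genes in a list of other heat shock factors, HSF1 regulators and related binding proteins, 1 was more than 2-fold higher. It was the binding protein Hspbap1 at 0.967 and 2.44 FPKM (log2 ratio 1.33), and the lowest was Eef1a2 (log2 ratio -0.35).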

How the data were processed

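RNA was extracted from hearts, pooled by genotype and enriched for mRNA with oligo-dT, and directional libraries were read as 50 nt single reads. The deposited values are FPKM per gene, which the authors computed with Cufflinks and Cuffdiff 2.1.1 for annotated genes from reads aligned to mm10 with TopHat2 2.0.8b. The submitters' processing notes also list STAR 2.4.0h and DESeq2 without their roles. The library scaling, the strand setting and the treatment of reads with several matches are not given in the sources used here. Groups were taken from the labels, with 1 library per genotype, so ratios and a 2-fold threshold were used without a test. Absolute depth and counting error could not be derived from these FPKM values, and intervals are therefore not given.

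Rows sharing a symbol were summed. A gene was kept if neither library listed it at 0 and at least 1 of them gave it 1 FPKM. The members, role classes and lists of related genes were chosen with earlier results of these data known. Every member was placed in a class and counted. Values were given by rule for members more than 2-fold apart whose higher value reached 2 FPKM, for members that reached 100 FPKM, and for cytosolic HSP70, HSP90, muscle small heat shock protein, Bag3 and Hsf genes. Of the other lists the lowest and highest gene are named. Values of further members (among them Dnajc21, the other HSP70 relatives, J-domain and BAG genes) were added after they had been seen.

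Gene positions, transcripts and coding sequences came from GENCODE M21 (GRCm38), matched by symbol, and promoters from RefSeq. A protein comparison was planned but not made here. Alternatives were pseudocounts of 0.1 and 1 FPKM, 3 other filters, 4 other scalings, rows kept apart, and thresholds of 1.5-fold and 4-fold. A count was taken as moved when it differed by more than 1.5 times, and a single ratio when it changed by more than that factor or crossed 2-fold. The scripts were tested on simulated data and run with Python 3.11.15, numpy 2.4.6, pandas 2.3.3 and matplotlib 3.10.9.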

Additional observations from a re-analysis of the deposited data

How the results depend on the processing

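No paired analysis was possible because each genotype has 1 pooled library, and for the same reason no library could be left out. In place of 6 members more than 2-fold higher, 14 of 63 were higher past 1.5-fold, beside 23.7% of all genes. Without members sharing 10% or more of their words, an alternative chosen after seeing the data, 2 of 54 were higher, beside 13.5%. In place of 8 lower members, 5 of 58 were lower with 1 FPKM required in both libraries, beside 14.7% of all genes. With 10 FPKM in either there were 3 of 39, beside 16.3%. At 4-fold 2 of 63 were lower (Dnaja3 and Dnajc28), beside 5.14%, and 5 were higher, beside 4.32%. At 1.5-fold 15 of 63 were lower, beside 29.7%. The filter of 1 FPKM in both libraries itself removes genes that are low in csMed1-/-, whereas that of 10 FPKM in either removes genes that are low in both. No other alternative moved either count by more than 1.5 times, with 5 to 9 members higher and 6 to 9 lower. The median log2 ratio of the members lay between -0.14 and 0.10. The other scalings shifted every log2 ratio by -0.04 to 0.12. Scaling to the FPKM total, which raised all ratios, gave 9 higher and 8 lower members (52.9% of these calls higher, against 42.9%), adding Dnajb9, Hspb2 and Hspb8. Of 594 values of single genes under the alternatives 582 stayed within 1.5 times and on their side of 2-fold and 12 did not. The sign changed in 4, for Dnajb5, Dnajb12 and Dnajc14, whose log2 ratios as reported were at most 0.09 in size. A pseudocount of 1 FPKM brought Dnajc28 from -3.28 to -1.35 and Hspa1b from 4.50 to 3.86. The members' share of FPKM was 1.18% in control and 1.64% in csMed1-/-, but 1.0% in both libraries once the 100 highest genes, among them Cryab, Hspb1 and Hspb6, were left out.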

Other observations

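Several partners of the members that no rule above singled out were also more than 2-fold apart, and they were picked here after their values were seen. Flnc, filamin C of the Z-disc and a client of Bag3, was 118 FPKM in control and 409 FPKM in csMed1-/- (log2 ratio 1.80). Ubb, a polyubiquitin gene, was 1138 and 3505 FPKM (log2 ratio 1.62). Fkbp8, an immunophilin of the outer mitochondrial membrane that binds HSP90, was 165 and 344 FPKM (log2 ratio 1.06). Sdf2l1, a partner of J-domain proteins in the endoplasmic reticulum, was 6.56 and 14.8 FPKM (log2 ratio 1.17).

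Downwards, the mitochondrial chaperonin subunits Hspd1, at 27.0 and 7.79 FPKM (log2 ratio -1.79), and Hspe1, at 154 and 59.1 FPKM (log2 ratio -1.38), were both more than 2-fold lower. Trap1, the mitochondrial HSP90, was 108 and 96.7 FPKM (log2 ratio -0.16). Among cytosolic HSP90 partners, Aarsd1 was 45.2 and 13.6 FPKM (log2 ratio -1.73) and St13, which joins HSP70 to HSP90, was 18.5 and 9.11 FPKM (log2 ratio -1.02). Sqstm1, the autophagy receptor p62, was 338 and 526 FPKM (log2 ratio 0.64).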
